A study of Mus musculus with 29 samples.

Results

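The genes described here carry muscle glucose from the membrane to glycogen and to the first control point of glycolysis. They are the 9 genes Slc2a4, Slc2a1, Hk2, Hk1, Pfkfb3, Pfkfb1, Pfkfb4, Pygm and Gys1, taken by symbol from the 22537 genes of the count table. The rule sets no threshold on their values, although the set was proposed with earlier results of these data known, and all 9 were counted in each of the 29 libraries and passed the filter on low counts. Poly-A RNA of the entire tibialis anterior (TA), a fast hindlimb muscle, was sequenced from male C57BL/6 mice of the National Institute on Aging colony, aged 6 months (6m, n = 7), 24 months (24m, n = 7) and 28 months or more (28m, n = 8). None of the groups was labelled with an allele or a treatment. The paper states that the mice had completed its tests of physical function, which included treadmill and voluntary wheel running. It also states that the hindlimb muscles were collected under ketamine and xylazine anaesthesia. The 24m libraries were sequenced in a first run beside libraries of the 6m mice, and the 28m libraries in a second run beside a further library of each of these 7 young mice. Each old group was therefore compared with the 6m libraries of its own run, and the 24m and 28m groups share their control mice.

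Glucose enters a muscle fibre through facilitative transporters. Hexokinase traps it as glucose 6-phosphate, which is either polymerised into glycogen by glycogen synthase or sent down glycolysis, and glycogen phosphorylase releases the stored glucose as glucose 1-phosphate when the muscle contracts. The PFKFB enzymes make and remove fructose 2,6-bisphosphate, an activator of phosphofructokinase 1. Fast muscles such as the TA rely on glycogen for short bursts of force, and the transporters, hexokinases and PFKFB enzymes exist in forms with different distributions among tissues.

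The libraries held from 17633475 to 33499162 counts. The 6 genes used to define skeletal muscle (Acta1, Ckm, Mb, Des, Tnnt3 and Myh4) summed to between 91921 and 162440 CPM (counts scaled to a common library total) in the 29 libraries, which fits the tissue on the labels. Genes of the marker lists were counted at an adjusted p under 0.05 (edgeR). At 28m 47.3% of all genes passed, 22.9% lower and 24.3% higher. Of the marker lists, that of the response to denervation (7 genes, among them Chrna1, Chrng, Myog, Runx1, Gadd45a and Ncam1) had 6 of 7 genes higher at 28m. Its summed level was 79.9 to 476 CPM against 35.5 to 63.1 CPM at 6m. The endothelial list (Pecam1, Cdh5, Kdr, Tek, Tie1, Emcn and Cldn5) had 5 of 7 genes lower and 1 higher, with 226 to 322 CPM against 384 to 428 CPM. The fibroblast list had 3 of 5 genes lower, with 310 to 1133 CPM against 523 to 2741 CPM. The slow fibre list had 4 of 7 genes higher, with 102 to 256 CPM against 79.5 to 128 CPM. The fast fibre list had 4 of 8 genes higher and 1 lower, with 141444 to 174171 CPM against 160031 to 176886 CPM. The adipocyte list had 1 of 5 genes higher, with 3.14 to 52.4 CPM (median 22.6) against 6.54 to 22.1 CPM (median 11.4). The part of these markers in the results was not tested, except where a measurement is given. In whole muscle, fewer cells of a type and less RNA per cell cannot be told apart.

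Pygm and Pfkfb3 are shown by sequence because they had the lowest adjusted p and the largest decrease at 28m, and because their RNA levels deviated together from mouse to mouse. Slc2a4 deviated more closely with Pygm by Pearson r (0.86, against 0.73 for Pfkfb3) but less closely by Spearman rho (0.76, against 0.82). Promoter sequences of RefSeq (build GRCm38.p6) were matched for 8 of the 9 genes, all but Slc2a4, with 13 start sites. The 250 bases upstream of the Pygm start (chr19:6384158-6384407, plus strand) and of the second Pfkfb3 start (chr2:11502091-11502340, minus strand) are printed 5′ to 3′, and capitals mark matches on either strand to CAGCTG (the E-box form bound by myogenic factors), CACGTG (the E-box form that includes the core of carbohydrate response elements) and GGGCGG (the core of the GC box).
Pygm: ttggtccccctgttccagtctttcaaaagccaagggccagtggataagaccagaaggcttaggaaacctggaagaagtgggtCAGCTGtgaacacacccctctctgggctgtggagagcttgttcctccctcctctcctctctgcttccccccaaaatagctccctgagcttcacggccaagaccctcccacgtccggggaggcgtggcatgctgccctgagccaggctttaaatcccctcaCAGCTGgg
Pfkfb3, second start: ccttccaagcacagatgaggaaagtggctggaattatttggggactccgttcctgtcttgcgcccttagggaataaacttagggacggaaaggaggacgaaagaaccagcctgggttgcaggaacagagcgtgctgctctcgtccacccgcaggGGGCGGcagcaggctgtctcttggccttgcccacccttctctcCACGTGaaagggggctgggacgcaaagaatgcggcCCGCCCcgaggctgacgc
The Pygm window held CAGCTG at both -168 to -163 and -8 to -3, counted back from -1 at the base before the start. The window of the second Pfkfb3 start held CACGTG at -53 to -48 with GGGCGG or its reverse complement at -96 to -91 and -18 to -13. The window of the first Pfkfb3 start, not printed, held no CACGTG. It held GGGCGG or its reverse complement at -177 to -172 and -140 to -135. Of all 32851 promoters of the same length, 13% held CAGCTG, 6.02% held CACGTG and 32.7% held GGGCGG. Upstream of Gys1 and of a start of Pfkfb1 CAGCTG also stood, and CACGTG stood in no other window of these genes. A MEF2 motif stood upstream of 1 of the 4 Pfkfb1 starts and in no other window of these genes, against 2.92% of all promoters. These matches are descriptions of letters, not of bound sites.

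The genes differed widely in level. Per kilobase of exon in the 6m libraries of the second run, Pygm was highest with 3098 ± 142 CPM per kb (SD, n = 7), followed by Slc2a4 with 195 ± 16.3, Gys1 with 143 ± 11.4, Hk2 with 94.7 ± 6.55 and Pfkfb3 with 58.0 ± 12.3 CPM per kb. Pfkfb4 (13.2 ± 1.75 CPM per kb) and Pfkfb1 (12 ± 1.85 CPM per kb) lay within each other's spread. Slc2a1 and Hk1 were the lowest, with 2.5 ± 0.345 and 1.39 ± 0.249 CPM per kb. Apart from Pfkfb4 and Pfkfb1, no neighbours in this order overlapped in those 7 libraries. The order depends on the lengths, which are of all GENCODE exons of a gene and not of the UCSC annotation the authors counted with: in CPM, Hk1 (11.9 ± 2.12) stood above Slc2a1 (8.75 ± 1.21), and Gys1 (685 ± 54.6) and Slc2a4 (679 ± 56.8) overlapped. The muscle forms of the transporter and the hexokinase thus stood far above the widely expressed forms, and the same order held in the 6m libraries of the first run.

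The question of the first comparison was which of these genes differed between 28m and 6m. At 28m, 4 of the 9 genes were lower (Pygm, Pfkfb3, Hk1 and Slc2a4), 1 was higher (Slc2a1), and Hk2, Gys1, Pfkfb1 and Pfkfb4 did not pass (edgeR quasi-likelihood test, Benjamini-Hochberg adjusted p under 0.05 over 12994 genes). Among all genes tested, 47.3% passed, 22.9% lower and 24.3% higher, so that the share of these genes that passed (55.6%) was near the background. Their median log2 fold change was -0.21, against 0.01 over all genes. With a dependence on exon length and GC content taken out of each library, the medians were -0.03 and 0.04. DESeq2, which called 41.9% of its 15805 genes, also called 5 of the 9, with the same 4 lower and 1 higher. The plot of levels by library shows all the values behind these tests.

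**Figure D1:**
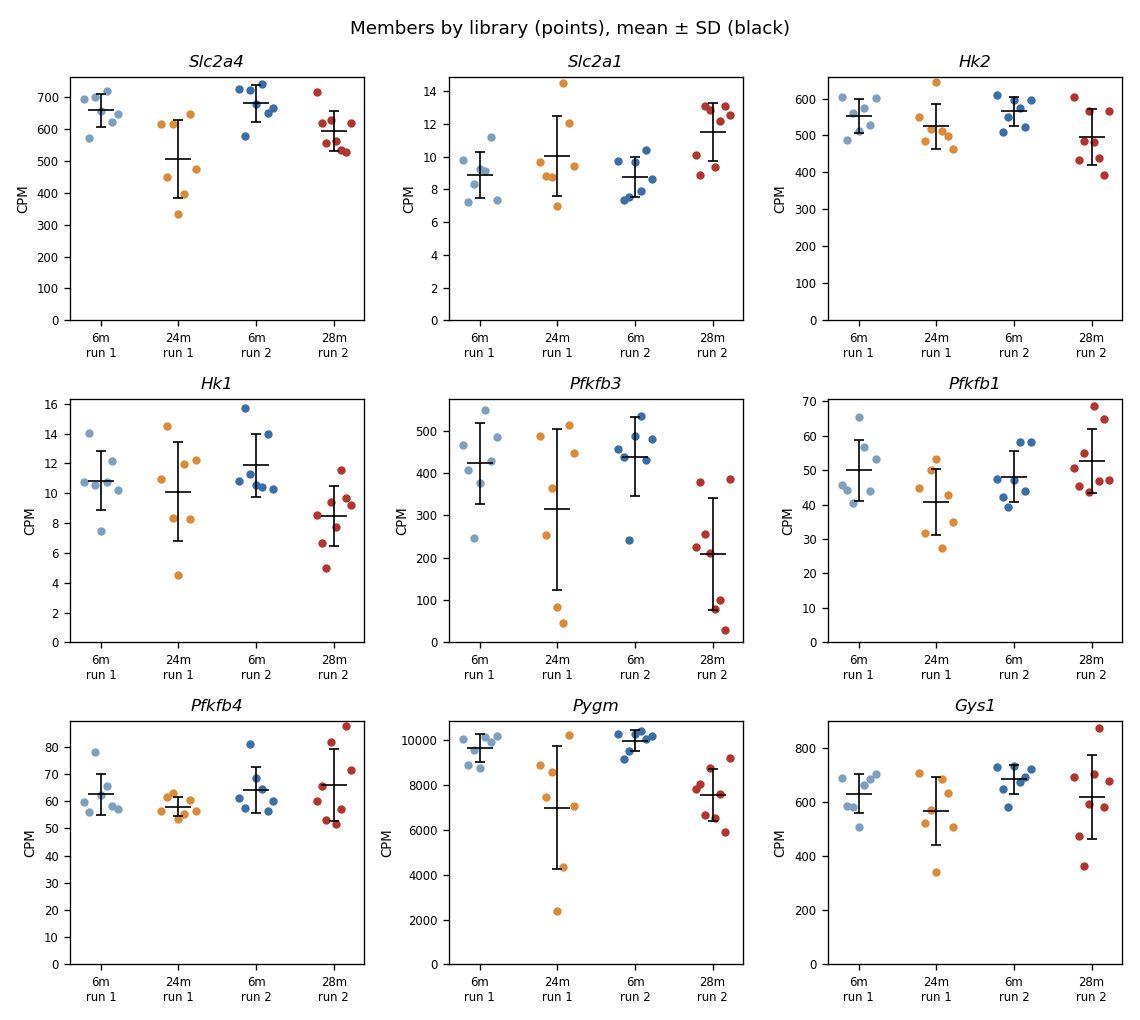
Level of each gene (CPM, linear axes from 0) in the 29 libraries, by age and run; points are libraries and black marks the mean ± SD. At 28m the Pfkfb3 points spread from 30.2 to 387 CPM, and at 24m 2 Pygm points (2387 and 4348 CPM) lie far under the other 5.

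Slc2a4 (chr11:69942539-69948188, minus strand) encodes GLUT4, the transporter that insulin and contraction bring to the surface of the fibre. Its level ran from 577 to 741 CPM with a median of 677 at 6m in the second run, and from 527 to 716 with a median of 589 CPM at 28m. In 4 of the 8 mice at 28m it lay below every 6m library, and the groups overlapped. The log2 fold change was -0.22 ± 0.083 (SE; adjusted p = 0.0383, edgeR), a decrease of 14.2%. This call was fragile: 6 of 11 alternative analyses and 11 of the 15 fits that left out a library lost it, with adjusted p up to 0.159 in the model of all 29 libraries. It was kept without 6m replicate 2 or without 28m replicate 1, 4 or 8 of that run.

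Slc2a1 (chr4:119108711-119137983, plus strand) encodes GLUT1, the transporter of basal uptake, which is also made by endothelial cells. At 6m in the second run it ran from 7.34 to 10.4 CPM with a median of 8.64, and at 28m from 8.85 to 13.1 CPM with a median of 12.4. All 6m libraries were exceeded in 5 of the 8 old mice, and none fell below them. The log2 fold change was 0.37 ± 0.12 (SE; adjusted p = 0.0172, edgeR), an increase of 29.1%. It passed in all 11 alternatives and in all 15 fits without a library, with adjusted p between 0.0088 and 0.0446. The summed endothelial markers were lower and did not overlap (226 to 322 CPM at 28m, 384 to 428 CPM at 6m), with 5 of the 7 genes lower and 1 higher. The red cell markers, 4 genes of which 2 were at 0 in all libraries, overlapped (91.7 to 525 CPM with a median of 144 at 28m, 58.5 to 276 CPM with a median of 152 at 6m). The part of either cell type in the Slc2a1 level was not tested. Slc2a1 shares 105 exonic bases with the antisense gene Gm12868, with the strand setting of the counting not given in the sources used here.

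The pair of transporters was therefore also compared within libraries, which cancels the library scale. The log2 ratio of Slc2a4 to Slc2a1 ran from 5.95 to 6.57 with a median of 6.25 at 6m in the second run and from 5.32 to 6.14 with a median of 5.61 at 28m, where 6 of 8 mice lay below every 6m library. The means differed by -0.58 (6.27 ± 0.219 at 6m, 5.69 ± 0.32 at 28m, SD), with an exact two-sided permutation p of 0.00295 and an adjusted p of 0.0157 over the 8 ratio tests (4 ratios at 2 ages). The same ratio differed at 24m, by -0.57 (6.21 ± 0.219 at 6m, 5.64 ± 0.432 at 24m, SD), with an exact two-sided permutation p of 0.00408 and an adjusted p of 0.0157. At 24m, 5 of 7 mice lay below every 6m library of the first run. Both comparisons rest on the same 7 mice at 6m, in separate libraries.

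**Figure D2:**
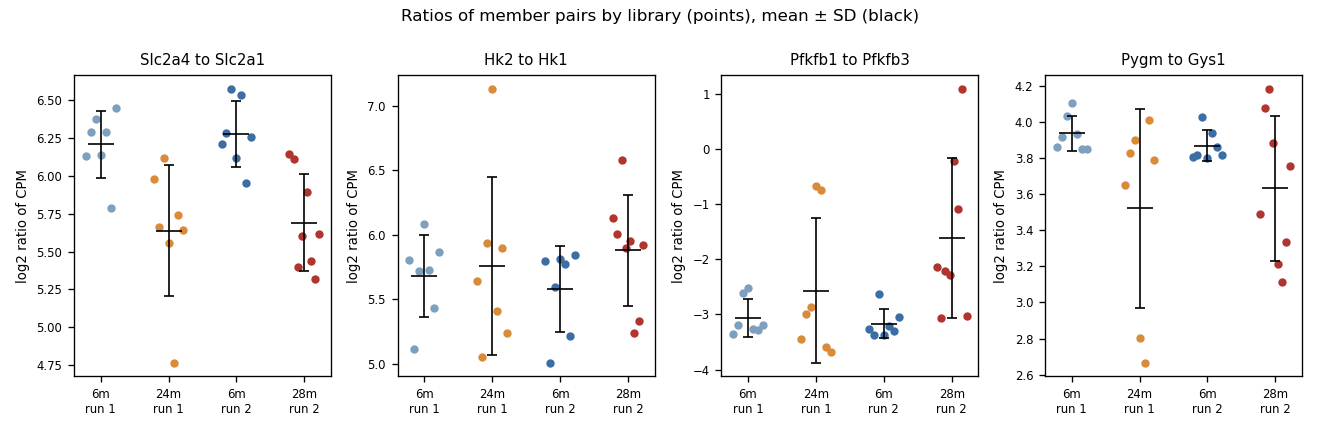
The log2 ratio of CPM of 4 pairs of genes in each library, by age and run; points are libraries and black marks the mean ± SD. For Slc2a4 to Slc2a1 the mean falls from 6.21 to 5.64 at 24m and from 6.27 to 5.69 at 28m, and for Pfkfb1 to Pfkfb3 the 28m points spread from -3.06 to 1.10.

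The hexokinases phosphorylate glucose. Hk2 (chr6:82725025-82774454, minus strand) is the form that predominates in adult insulin-responsive muscle. It ran from 510 to 608 CPM at 6m in the second run (median 573) and from 394 to 604 CPM at 28m (median 484), with 5 of 8 mice below every 6m library. Its log2 fold change of -0.21 ± 0.10 (SE) did not pass (adjusted p = 0.079, edgeR), though it passed without 28m replicate 1, 4 or 8, with adjusted p of 0.041, 0.0457 and 0.0453. With that dependence on length and GC content taken out, its log2 fold change was 0.01.

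Hk1 (chr10:62268855-62379908, minus strand), the form found in most tissues and bound to mitochondria, ran from 10.3 to 15.7 CPM with a median of 10.9 at 6m in the second run. At 28m it ran from 4.99 to 11.6 CPM with a median of 8.88, and 7 of 8 mice lay below every 6m library. The log2 fold change was -0.51 ± 0.16 (SE; adjusted p = 0.0149, edgeR), a decrease of 29.8%. At 28m longer genes tended to be lower (Spearman rho between log2 fold change and exonic length -0.539 across 12870 genes, which are not independent replicates), and genes of a length near the 8532 bases of Hk1 had a median log2 fold change of -0.28. With the length and GC trend removed, Hk1 did not pass (-0.10, adjusted p = 0.489), nor did it against the first-run 6m libraries (-0.38, adjusted p = 0.0969), though it passed against these without replicate 4 (-0.45, adjusted p = 0.0348, edgeR). Hk1 shares 157 exonic bases with the antisense gene Hk1os, and the strand setting of the counting is not given in the sources used here. The log2 ratio of Hk2 to Hk1 did not differ beyond the spread at 28m (0.30, exact two-sided permutation p = 0.159, adjusted p = 0.212) or at 24m (0.08, adjusted p = 0.825, exact permutation).

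Among the PFKFB genes, Pfkfb3 (chr2:11471433-11554077, minus strand), whose product favours synthesis of fructose 2,6-bisphosphate, had the largest decrease. It ran from 243 to 535 CPM with a median of 458 at 6m in the second run. The values at 28m, in the order of the replicate numbers, were 224, 378, 255, 212, 80.0, 99.6, 30.2 and 387 CPM. Thus 5 of 8 mice lay below every 6m library, while 3 lay within the 6m range. This amounted to a log2 fold change of -1.10 ± 0.39 (SE; adjusted p = 0.0306, edgeR), a decrease of 53.4%. The SD of the 28m mice was 133 CPM around a mean of 208 CPM, against 93.3 around 439 CPM at 6m. The call was lost with the length and GC trend removed (-0.79, adjusted p = 0.112), against the first-run 6m libraries (-1.04, adjusted p = 0.0639) and those without replicate 4 (-1.07, adjusted p = 0.0559), and, within the second run, without 6m replicate 4, 5 or 7 or 28m replicate 5 (adjusted p from 0.05 to 0.0538).

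Pfkfb1 (chrX:150588229-150643878, plus strand), the liver and muscle form, and Pfkfb4 (chr9:108991778-109032228, plus strand), a form first known from testis, did not pass. At 28m Pfkfb1 ran from 43.5 to 68.5 CPM against 39.3 to 58.2 CPM at 6m (log2 fold change 0.11 ± 0.12, SE; adjusted p = 0.467, edgeR), and Pfkfb4 from 51.7 to 87.6 CPM against 56.3 to 80.9 CPM (0.02 ± 0.12, SE; adjusted p = 0.92). Pfkfb1 relative to Pfkfb3 had a log2 ratio of -3.17 ± 0.264 (SD) at 6m and -1.62 ± 1.45 (SD) at 28m, a difference of 1.55 with 6 of 8 mice above every 6m library (exact two-sided permutation p = 0.0059, adjusted p = 0.0157). With the length and GC trend removed, it was 1.18 (adjusted p = 0.0587, exact permutation). At 24m the difference was 0.49 and did not pass (adjusted p = 0.462, exact permutation). It ran from 0.18 to 0.68 without each library of the 24m comparison in turn, and never passed. Pfkfb1 shares 123 exonic bases with Apex2 on the opposite strand. The strand setting of the counting is not given in the sources used here, so the shared bases may have affected its counts.

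Pygm (chr19:6384399-6398459, plus strand), the muscle glycogen phosphorylase whose loss causes McArdle disease, was the most abundant of the 9 and had the lowest adjusted p. It ran from 9160 to 10390 CPM with a median of 10168 at 6m in the second run, and at 28m it was 7790, 8023, 6637, 8763, 6527, 7570, 5878 and 9182 CPM in the order of the replicate numbers. This was a log2 fold change of -0.43 ± 0.10 (SE; adjusted p = 0.00355, edgeR), a decrease of 25.7%. With the libraries scaled within this comparison, all 8 mice at 28m lay below every 6m library, as did 6.7% of all genes tested, whereas on the scale of all 29 libraries 28m replicate 8 (9182 CPM) lay just above the lowest 6m library (9160 CPM). Pygm went against the length trend, since genes of near length had a median log2 fold change of 0.14, and it passed in 10 of 11 alternatives and in all 15 fits without a library. The exception was the model of all 29 libraries (-0.40, adjusted p = 0.0722).

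Gys1 (chr7:45434844-45456619, plus strand), the muscle glycogen synthase, spread at 28m to both sides of the 6m range. At 6m in the second run it ran from 583 to 736 CPM (median 692), and at 28m from 365 to 874 CPM (median 637), with 3 mice below and 1 above every 6m library. Its log2 fold change of -0.17 ± 0.14 (SE) did not pass (adjusted p = 0.349, edgeR; the interval of the log2 fold change was -0.45 to 0.12). It ran from -0.25 without 28m replicate 6 to -0.08 without 28m replicate 3 and was -0.03 with the length and GC trend removed, none of which passed (edgeR). Pygm relative to Gys1 had a log2 ratio of 3.87 ± 0.0859 (SD) at 6m and 3.63 ± 0.402 (SD) at 28m, which did not pass (-0.23, exact two-sided permutation p = 0.152, adjusted p = 0.212). With the length and GC trend removed it did (-0.45, adjusted p = 0.041, exact permutation). At 24m the difference of this ratio was -0.41 and did not pass, with 5 of 7 mice below every 6m library (exact two-sided permutation p = 0.039, adjusted p = 0.0781). Gys1 shares 310 exonic bases with Ruvbl2 on the opposite strand, with the same limit on its counts.

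**Figure D3:**
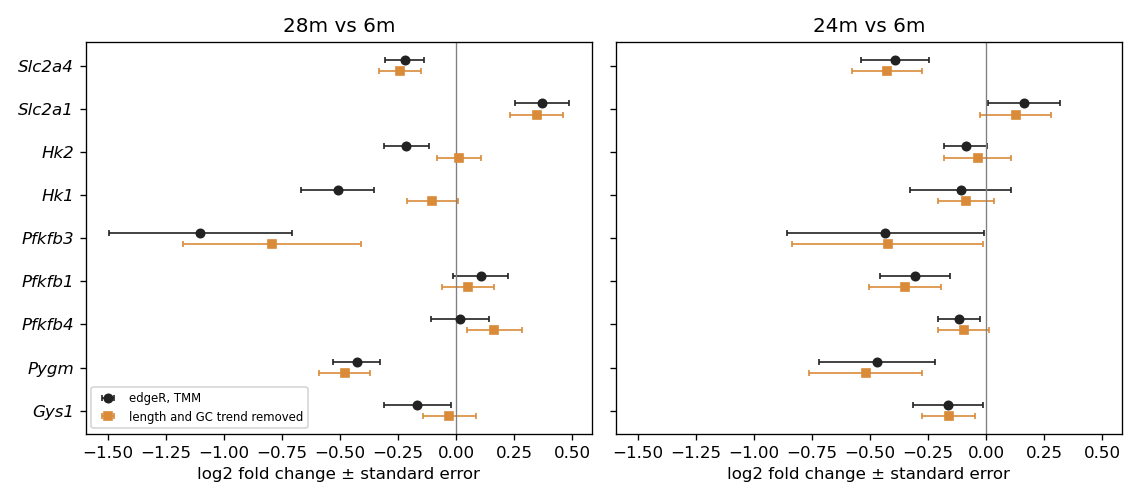
The log2 fold change ± SE of each gene at 28m (left) and 24m (right) against the 6m libraries of the same run, as tested (black circles) and after a dependence on exon length and GC content was taken out of each library (orange squares). At 28m Hk1 moves from -0.51 to -0.10 while Pygm goes from -0.43 to -0.48.

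At 24m, none of the 9 genes passed (edgeR, 13103 genes tested, of which 0.084% passed), none passed with DESeq2, which called 1.4% of its genes, and 1 of the 9 had an unadjusted p under 0.05. That gene was Slc2a4, which ran from 332 to 647 CPM with a median of 475 at 24m and from 571 to 718 CPM with a median of 656 at 6m in the first run. In 4 of 7 mice at 24m it lay below every 6m library (log2 fold change -0.39 ± 0.15, SE; adjusted p = 0.351, edgeR). None of the 9 had groups that did not overlap at 24m, in a table where 0.237% of genes lay wholly lower and 0.389% wholly higher. The other log2 fold changes ran from -0.47 for Pygm (adjusted p = 0.456) to 0.16 for Slc2a1 (adjusted p = 0.647, edgeR).

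At 24m, replicates 4 and 5 stood apart from the other mice. Pygm was 2387 CPM in 24m replicate 4 and 4348 CPM in replicate 5, and from 7059 to 10203 CPM in the other 5 mice. Likewise Pfkfb3 was 84.5 and 45.5 CPM in these mice against 254 to 515 CPM, and Slc2a4 was 332 and 396 CPM against 450 to 647 CPM. Hk1 was lowest and Hk2 highest in replicate 4 (4.51 and 645 CPM), and Slc2a1 was highest in replicate 5 (14.5 CPM). In the same 2 libraries the denervation markers summed to 929 and 874 CPM, against 59.3 to 205 CPM in the other 5, and the slow fibre markers to 498 and 254 CPM, against 112 to 163 CPM. Replicate 5 also had the lowest sum of the muscle-defining (91921 CPM) and fast fibre markers (111115 CPM) of the 29 libraries, and replicate 4 the lowest endothelial sum (199 CPM). Their part in these low values was not tested. At 28m the lowest Pfkfb3 and Pygm were both in replicate 7 (30.2 and 5878 CPM), where the macrophage list (Adgre1, Csf1r, Mrc1, Cd163, Cd68 and Lyz2) summed to 512 CPM, against 64.3 to 96.8 CPM in the other 7 mice, and where the adipocyte sum (52.4 CPM) was the highest of the 29 libraries. Replicates 5, 6 and 7, with the lowest Pfkfb3 at 28m (80.0, 99.6 and 30.2 CPM), had the highest denervation sums (202, 476 and 202 CPM, against 79.9 to 144 CPM in the other 5). The part of these lists in these values was not tested.

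Whether the 28m effect differed from the 24m effect was tested directly, each against the 6m libraries of its own run. No gene of 13455 (0%) and so none of the 9 passed (edgeR; limma-voom with and without the mouse as a block also gave 0 genes), and 1611 genes had an unadjusted p under 0.05. Without 24m replicate 4, 1657 of 13492 genes passed, and none of the 9 did. Of the 9, Pfkfb1 had the lowest p, with 0.11 at 28m and -0.31 at 24m (difference 0.43, 95% interval 0.04 to 0.82, unadjusted p = 0.0385 and adjusted p = 0.41, edgeR). For Pfkfb3 the difference was -0.65 with an interval of -1.83 to 0.54, and for Pygm 0.06 with an interval of -0.44 to 0.57. For these genes a difference between the effects at the ages is thus not shown.

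The 6m mice were sequenced in both runs, which gives the error of a repeated library. Between the runs no gene of 12884 passed (0%, edgeR; 357 had an unadjusted p under 0.05), and of the 9 genes none had an unadjusted p under 0.05. The log2 difference between the libraries of a mouse ran from 0.015 to 0.066 for Slc2a4, which was higher in the second run in 7 of 7 mice (0.05 with a replicate block for the mouse, adjusted p = 0.498, edgeR). Of the 9 genes, the largest differences were in 6m replicate 4, where Gys1 was 509 CPM in the first run and 736 CPM in the second, a log2 difference of 0.53, and where Hk1 differed by 0.50 and Pfkfb1 by -0.47. Across 13455 genes the SD of the log2 difference between its libraries was 0.617, against 0.237 to 0.282 for the other 6 mice. Pfkfb3 of 6m replicate 3 was the lowest of its group in both runs (247 and 243 CPM).

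Variation between mice of the same age was shared among some of the genes. Over the 22 mice, as deviations of log2 CPM from the mean of their age and run, Slc2a4 went with Pygm (Pearson r = 0.86, Spearman rho = 0.76) and Pfkfb3 with Pygm (r = 0.73, rho = 0.82), and without the 2 mice farthest from the median r was 0.75 and 0.74. Slc2a4 went with Pfkfb3 less closely (r = 0.67). Hk1 and Gys1 had r = 0.68, which fell to 0.25 without 2 mice. Hk1 and Pfkfb1 were inverse (r = -0.58, rho = -0.57, and r = -0.53 without 2 mice), the most negative r over all 22 mice among the pairs of the 9 genes. Without the same 2 mice Hk1 and Slc2a4 had r = -0.55, against 0.11 with all mice. All points share library preparation and scaling, and these values are descriptions without a test.

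**Figure D4:**
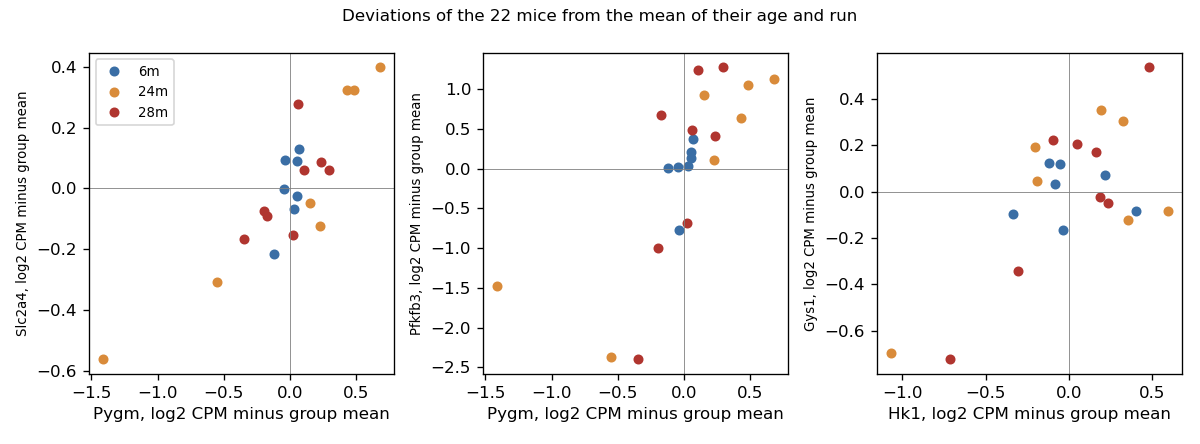
Deviation of log2 CPM of each of the 22 mice from the mean of its age and run, for Slc2a4 and Pfkfb3 against Pygm and for Gys1 against Hk1; colours mark age, and the 2 libraries of a 6m mouse are averaged. Slc2a4 (r = 0.86) and Pfkfb3 (r = 0.73) rise with Pygm, while the relation of Hk1 and Gys1 (r = 0.68) rests on few mice.

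Of 13455 genes, those with the deviations most like each of the 9 were listed by Pearson r over the same 22 mice. For Pygm they were Sun2 (r = 0.97), Gpd1 (0.97), a cytosolic glycerol 3-phosphate dehydrogenase, and Adal (0.96), and for Slc2a4 Rhot2 (0.93), Pfkm (0.92), the muscle phosphofructokinase, and Abcb4 (0.91). Pfkfb3 was closest to Gpd2 (0.92), the mitochondrial glycerol 3-phosphate dehydrogenase, Msrb3 (0.91) and Slc43a1 (0.90). Gys1 was closest to Got2 (0.97), Afg3l2 (0.96) and Zfp629 (0.94), and Pfkfb1 to Egfl7 (0.90), Uqcrc1 (0.88) and Chchd10 (0.88). Hk1 was closest to Smo (0.96) and Ppp1r9b (0.94). The nearest genes were less alike for Hk2 (Tnpo3 0.76, Bdh1 0.73, Snx12 0.71), Slc2a1 (Wwox 0.74, B3galt1 0.70, Ctnnal1 0.67) and Pfkfb4 (Osgin1 0.81, Prodh 0.81 and the carboxypeptidase gene Cpm 0.78).

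Around these 9, 70 other genes of the same pathways were listed, of which 67 could be tested. At 28m, 22 were lower, 13 higher and 32 did not pass (edgeR), their median log2 fold change was -0.13, and 47.3% of all genes passed. With the length and GC trend removed, an alternative read for these genes after seeing the data, 17 were lower and 12 higher, against 37.2% of all genes, with a median of -0.11. Of the pathway genes named by their values here, Pgm2l1, Fbp2, Stbd1, Epm2a, Prkab1 and Mef2a did not pass then, with adjusted p of 0.0634, 0.586, 0.361, 0.0501, 0.0938 and 0.0902 (edgeR). Of the 14 genes of glucose transport and transporter traffic, 5 were lower and 6 higher. Among them were Rab13, a GTPase of vesicle traffic (6.48 ± 0.839 CPM at 6m, 14.7 ± 6.68 CPM at 28m, SD; log2 fold change 1.19, adjusted p = 0.00149), and Lnpep, the aminopeptidase of GLUT4 vesicles (21.7 ± 2.91 and 10.3 ± 7.59 CPM; -1.07, adjusted p = 0.0218).

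Beside the list counts that follow, 47.3% of all genes passed at 28m, 22.9% lower and 24.3% higher (edgeR). For hexose phosphorylation, 3 of 7 tested genes were lower and 1 higher (edgeR), with Pgm2 (log2 fold change -0.37, adjusted p = 0.00275), a phosphoglucomutase, and Pgm2l1 (-0.56, adjusted p = 0.00225), a glucose 1,6-bisphosphate synthase, among the lower and Adpgk (0.31, adjusted p = 0.0109), an ADP-dependent hexose kinase, as the higher. Of the 6 tested genes that control phosphofructokinase or fructose 2,6-bisphosphate, only Fbp2, the muscle fructose bisphosphatase, passed (37.8 ± 3.62 and 56.1 ± 20.5 CPM; 0.57, adjusted p = 0.0325). In glycogen synthesis 4 of 12 tested genes were lower and 2 higher, the latter being the branching enzyme Gbe1 (log2 fold change 0.46, adjusted p = 0.00914) and the phosphatase subunit Ppp1r3f (0.54, adjusted p = 0.00177). The liver form Gys2 fell from 0.839 ± 0.144 to 0.369 ± 0.305 CPM (log2 fold change -1.17, adjusted p = 0.023), at levels far under those of Gys1. In glycogen breakdown and quality control 4 of 12 were lower and 2 higher, the latter being the phosphorylase kinase subunit Phkg2 (log2 fold change 0.42, adjusted p = 0.0261) and the glycogen-binding Stbd1 (0.48, adjusted p = 0.0378). Among the lower was laforin, Epm2a, at 44.5 ± 3.15 and 23.6 ± 14.5 CPM (log2 fold change -0.92, adjusted p = 0.0491).

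Of the 7 AMPK subunits, which form a sensor of cellular energy, 2 were lower and 1 higher: Prkaa2 (log2 fold change -0.58, adjusted p = 0.0039), Prkab2 (-0.91, adjusted p = 0.00651) and Prkab1 (0.26, adjusted p = 0.0211, edgeR). Among all genes 47.3% passed. Of the 9 genes in a list of glucose-responsive, hypoxia-responsive and muscle transcription factors and Txnip, 4 were lower and none higher, where 22.9% of all genes were lower and 24.3% higher. These were Mlxip, which encodes the glucose sensor MondoA (130 ± 7.65 CPM at 6m, 58.8 ± 22.9 CPM at 28m, SD; log2 fold change -1.14, adjusted p = 0.000679), its relative Mlxipl (-0.62, adjusted p = 0.00126), and the muscle transcription factors Mef2a (-1.12, adjusted p = 0.0461) and Mef2d (-0.92, adjusted p = 0.0234). At 24m, 1 of the 67 genes passed, and it was lower (edgeR), where 0.084% of all genes passed, and the median log2 fold change of the 67 was -0.07. None passed without 6m replicate 1, 2, 3, 4, 5 or 6 or without 24m replicate 1, 2 or 7, each left out in turn.

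**Figure D5:**
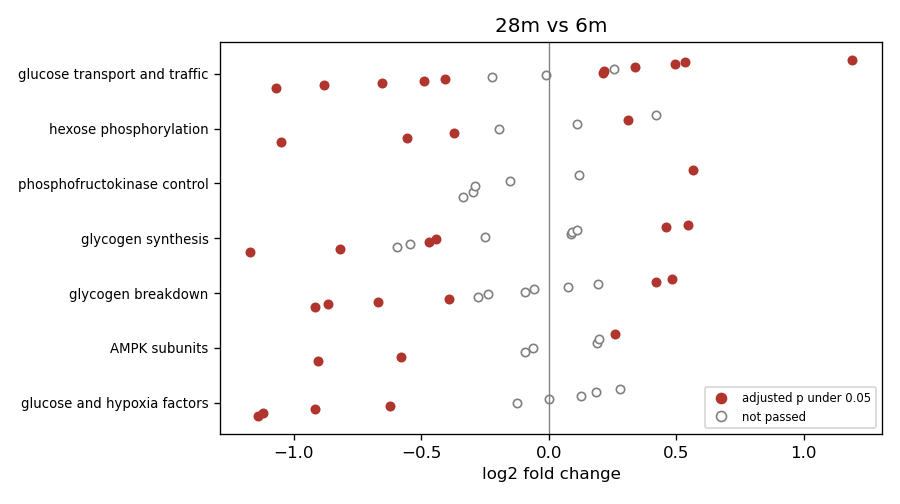
The log2 fold change of the 67 tested pathway genes at 28m against the 6m libraries of the same run, 1 point per gene in 7 lists; filled points passed an adjusted p of 0.05 (edgeR). Among the filled points 22 genes lie to the left of 0 and 13 to the right.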

How the data were processed

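RNA of the TA muscle of 22 mice was measured in 29 libraries, and the groups were taken from the sample labels. The authors deposited whole-number counts per gene for the whole series, made from 75-base single-end reads aligned to mm10 with STAR 2.5.4b and counted with its gene count option, without normalization. The strand setting is not given in the sources used here. No column was left unmapped (0). Counts of each comparison were filtered with filterByExpr, scaled by TMM and tested with edgeR 4.0.16 (quasi-likelihood, R 4.3.3), with Benjamini-Hochberg adjustment over all genes tested. The study's own tool, DESeq2 (here 1.42.0), and limma-voom (3.58.1) were alternatives. CPM levels used TMM over all 29 libraries. Ratios used log2 CPM with a prior count of 2 and exact permutation tests. Exonic lengths and positions came from GENCODE vM21 (GRCm38, the build of mm10). The tests were tried on simulated counts.

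The 9 genes, the lists and the tests were chosen with earlier results of these data known. Named were all 9 genes, up to 8 pathway genes per comparison with the largest change past an adjusted p of 0.05, genes of a list whose count was 3 or fewer, and the 3 genes most like each of the 9. Some genes that this rule names are not reported here. The 6m libraries of a mouse carry its name in both runs, which pairs them, and deviated together across genes (r from 0.218 to 0.814 over 7 mice).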

Additional observations from a re-analysis of the deposited data

Results flagged for a closer look

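Of 52 groups of values (the level of each of the 9 genes and the 4 ratios, in 4 groups of libraries), 4 held a library separated from the others by more than the critical share of the range in Dixon's test at the 95% level, and chance alone flags about 5% of groups. Pfkfb3 in 6m replicate 3 of the second run was 243 CPM, with 430 CPM in the next library and 535 CPM in the highest. Pfkfb4 in 6m replicate 3 of the first run was 78.2 CPM, with 65.6 CPM next. The log2 ratio of Hk2 to Hk1 was 7.13 in 24m replicate 4, with 5.94 next. The log2 ratio of Slc2a4 to Slc2a1 was 4.77 in 24m replicate 5, with 5.55 next, and without each library in turn the difference at 24m stayed between -0.65 and -0.43 (adjusted p up to 0.0295, exact permutation).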

How the results depend on the processing

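The share of all genes that passed in the same fit is given in brackets. Of the 9 genes, 5 passed at 28m with DESeq2 (41.9%), limma-voom (46.8%), a minimum of 10 counts in every library (49.6%) and thinned counts (46.5%). With RLE factors (47.3%), upper-quartile scaling (48.2%) or no filter (31.8%), 4 passed. The count was 3 in the model of all 29 libraries (39.9%) and 2 against the 6m libraries of the other run (23%). It was 3 against those but the fourth (36.9%), and 3 with the length and GC trend removed (37.2%). Without each library in turn it lay between 3 and 6 (40.7% to 51.7%), with 3 without 6m replicate 4, 5 or 7 or 28m replicate 5. At 24m it stayed at 0 in every alternative (0.0303% to 1.4%). Removing the length and GC trend took the log2 ratio of Pfkfb1 to Pfkfb3 at 28m to 1.18, past no threshold, and that of Pygm to Gys1 to -0.45 at 28m and -0.47 at 24m, both then passing. That ratio at 24m ranged from -0.50 to -0.27 without each library, and passed without 24m replicate 3 or 6. The causes were not tested. With a replicate block for the mouse, the 28m effect minus the 24m effect and the run comparison still gave 0 of the 9 genes. Without 24m replicate 4 the former called 1657 genes, against 0, and the 24m comparison 30, against 11. No value of the 9 genes or of their ratios that had passed its test changed sign, but some that had not passed did, among them Hk2 at 28m (0.01 with the length and GC trend removed), and Hk1 (0.02) and Hk2 to Hk1 (-0.15) at 24m, both without 24m replicate 4. The 67 pathway genes were read under these alternatives after seeing the data. At 28m 35 passed (47.3% of all genes), and 19 against the 6m libraries of the other run (23% of all genes). In each other alternative 28 to 38 passed (31.8% to 49.6% of all genes), and 29 to 38 without each library (40.7% to 51.7%). At 24m 1 passed (0.084% of all genes), and 2 with DESeq2 (1.4%) and in the model of all 29 libraries (1.13%). With a minimum of 10 counts in every library 0 passed (0.0334%), and without each library 0 to 1 (0.0303% to 0.228%). Hk1 and Slc2a1 had the fewest counts, with 102 to 375 and 133 to 350 counts per library in the 28m comparison, against 135631 to 260428 for Pygm. With counts thinned to the smallest library, Hk1 (-0.50, adjusted p = 0.0137) and Slc2a1 (0.35, adjusted p = 0.0187) still passed (edgeR).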
